A study of Mus musculus with 63 samples.

Results

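The rodent Sfmbt2 miRNA cluster is a tandem array of miR-297, miR-466, miR-467 and miR-669 hairpins inside 1 intron of Sfmbt2 on mouse chromosome 2. Its members here were the rows of the count table that started between 10370000 and 10600000 on chromosome 2 (GRCm38) and held at least 1 read in the 63 libraries together. There were 33 such rows, and 32 members once the 2 rows with identical counts (miR-467c-3p and miR-669a-3-3p) were taken as 1, of 2110 loci in the whole table. Small RNA was sequenced from 4 populations, endothelial cells (ECs, CD45-CD31+), macrophages (Macs, CD45+F4/80hi), proximal tubule (PT) cells (CD45-CD31-LTL+) and mesenchymal PDGFR-β+ cells (CD45-CD31-), sorted from the kidney cortex of 16 male C57BL/6 mice aged 8 to 12 weeks. The mice had a sham operation, ureteric obstruction for 2 days (UUO-2) or 7 days (UUO-7), or 7 days of obstruction followed by reimplantation of the ureter and 2 weeks of reversal (R-UUO). Each of the 16 groups had 4 libraries, except PDGFR-β+ cells at UUO-7 with 3. The 4 mice of a condition were those of a larger group whose kidney injury marker lay closest to the group mean, so the spread between mice is that of a selected set. The study asked which miRNAs mark each cell type and which change with injury and repair.

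miRNAs are cut from hairpins in a longer transcript, and either arm of a hairpin (5p or 3p) can become the mature miRNA that directs repression of mRNAs. Sfmbt2 encodes a Polycomb group protein that binds methylated histones, and the gene is known as an imprinted gene expressed from the paternal copy in the trophoblast, where its miRNA array is abundant and is needed for growth of the placenta. The array is found in rodents, and many of its hairpins are near copies of each other, so that reads of one can match several.

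All 32 members lay on the + strand inside a single intron of 62472 bases (chr2:10461473-10523944). GENCODE numbers it intron 10 of the protein-coding transcript Sfmbt2-201 and intron 11 of Sfmbt2-205. The gene runs from 10370510 to 10595253 on chromosome 2, and its other 5 transcripts end by 10439137, before the array. Each member lay within 1 of 119 annotated miRNA hairpin genes, all on the + strand of Sfmbt2. The 250 bases before the start of Sfmbt2-205 are shown because the transcripts that cross the array begin beside them, 94812 bases before the first member. The sequence is from RefSeq (GRCm38.p6, + strand, chr2:10372186-10372435), with matches to the GC box motif GGGCGG, or CCGCCC on the other strand, in capitals.
Sfmbt2 start: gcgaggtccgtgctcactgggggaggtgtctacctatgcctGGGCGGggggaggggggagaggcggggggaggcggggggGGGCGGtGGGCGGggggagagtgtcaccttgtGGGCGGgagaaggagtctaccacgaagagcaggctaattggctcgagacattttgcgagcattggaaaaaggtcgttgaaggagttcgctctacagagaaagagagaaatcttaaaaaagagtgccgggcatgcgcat
The window held 4 matches, all to GGGCGG, and 15 CG pairs. The motif was present in 32.7% of 32851 promoter windows of the same length, in which the median number of CG pairs was 6. This is a description of the letters, and the activity of the promoter was not measured.

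The reads of the array came from a minority of its rows. The window held 139 rows with 70 mature names, from miR-466m-5p at 10466677 onward, and 106 of the rows had no read in any library. Of the 53 names with a single row in the window, 24 (45.3%) had reads, 3312 in all. Of the 86 rows of the other 17 names, 9 (10.5%) had reads, 569 in all. miR-467a-5p and miR-467a-3p with 10 rows each, miR-466b-5p and miR-466b-3p with 8 rows each and miR-669a-3p with 11 rows held none, and all 464 reads of miR-669a-5p stood at 1 of its 12 rows. The longest stretch between rows with reads was 14.4 kb, from miR-466c-5p to miR-467e-5p, and all 29 rows within it belonged to names with several rows. How reads that match several rows were placed is not given in the sources used here, and its part in these zeros was not tested. A zero at a repeated row is therefore a value of the table and not a level of that hairpin, and a value at a row with close copies is uncertain in the same way. Outside the array, 11 loci of the same 4 families on other chromosomes held 1 read in all, at miR-466q.

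**Figure D1:**
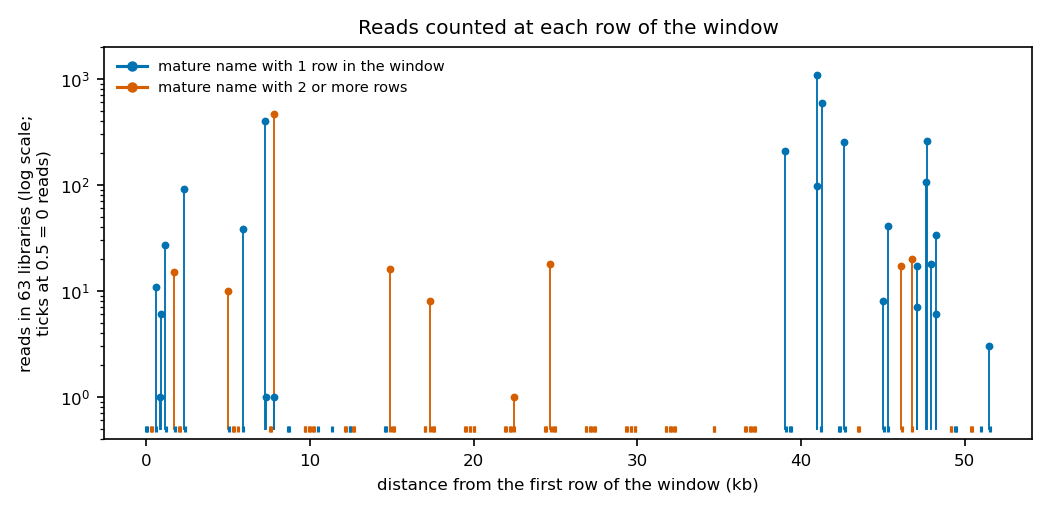
Reads in 63 libraries (log scale) at each of the 139 rows, against the distance in kb from the first row, with mature names that have 1 row in blue and names with several rows in orange; ticks at the bottom are the 106 rows without reads. The abundant rows stand in both end parts of the array, and the 14.4 kb between miR-466c-5p and miR-467e-5p holds 29 rows, none with reads.

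The cluster was scarce in sorted kidney cells and was dominated by a few miRNAs. It had 3880 reads in 63 libraries whose totals ranged from 616565 to 10819385. The 8 members with the highest mean level carried 86.8% of these reads, 7 members had reads in 40 or more libraries and 14 in fewer than 10. Levels are given as CPM, read counts scaled to a common library size with TMM factors over all libraries, and cover mature miRNAs of similar length. The miR-467 family held 46.1% of the reads with 5 members, miR-669 33.1% with 15, miR-466 20.6% with 11 and miR-297 0.206% with 1 (miR-297b-5p, 8 reads). miR-467d-5p (chr2:10507640-10507661) was the most abundant, with 1083 reads in 59 libraries. It was followed in mean level by miR-466a-3p (597 reads), miR-669a-5p (464), miR-467c-5p (398), miR-669c-5p (252), miR-669o-3p (260), miR-467e-5p (208) and miR-669o-5p (106).

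Most hairpins gave reads from 1 arm. The 22 members from 5p arms held 73.4% of the reads and the 9 from 3p arms 26.2%, and 1 member's name gives no arm. miR-467c had 398 reads of its 5p arm and 1 of its 3p arm, miR-467e 208 and 0, miR-669c 252 and 0, and miR-466a 0 and 597. The hairpins with clear reads of both arms were miR-669o, with 260 of 3p and 106 of 5p, and miR-467d, with 1083 of 5p and 97 of 3p. By pooled reads, the minor arm of miR-467d had its largest share in Macs. There miR-467d-3p had 71 reads beside 432 of the 5p arm, a share of 14.1% of both (exact 95% interval 11.2% to 17.5%), and it was present in 15 of 16 Mac libraries. The share was 3.81% (2.15% to 6.20%) in PDGFR-β+ cells, 5.56% (2.70% to 9.98%) in PT cells and 0.971% (0.0246% to 5.29%) in ECs. As a level, miR-467d-3p stood at 0.871 ± 0.142 CPM in Macs and 0.844 ± 0.978 in PT cells at UUO-2 (SD, n = 4 each). In R-UUO it stood at 0.279 to 0.653 CPM in Macs and at 0 to 1.38 in PT cells, so both types overlapped in these conditions. The intervals of the shares cover counting error in pooled reads and not the spread between mice, and miR-467d-3p did not pass the filter of the tests. With no filter its level was called higher in Macs than in the mean of the other 3 types (edgeR, log2 2.39 ± 0.50, adjusted p = 9.00e-06). It was 1 of 5 members called higher there, of 32 tested, beside 296 of 1587 loci. The share itself was not tested.

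The cluster was lowest in ECs. The summed level of the 32 members was 4.52 ± 1.60 CPM (SD, n = 16 libraries) in ECs, 18.5 ± 10.1 in Macs (n = 16), 21.6 ± 8.50 in PDGFR-β+ cells (n = 15) and 22.5 ± 12.4 in PT cells (n = 16). Every EC library lay at or below 7.26 CPM, while the other cell types reached from 35.3 to 39.1. In sham mice, the level was 3.58 ± 1.42 CPM in ECs, 5.36 ± 2.54 in PT cells, 6.61 ± 1.65 in Macs and 14.6 ± 9.10 in PDGFR-β+ cells (SD, n = 4 each), and the ranges of neighbours in this order overlapped. The order of Macs, PT cells and PDGFR-β+ cells rests on the scaling. By library size alone the means were 3.01 CPM in ECs, 17.5 in PDGFR-β+ cells, 24.6 in PT cells and 32.3 in Macs. The TMM factors behind this were 0.471 to 0.769 in ECs, 0.622 to 1.09 in PDGFR-β+ cells, 0.517 to 1.53 in PT cells and 1.37 to 2.01 in Macs.

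**Figure D2:**
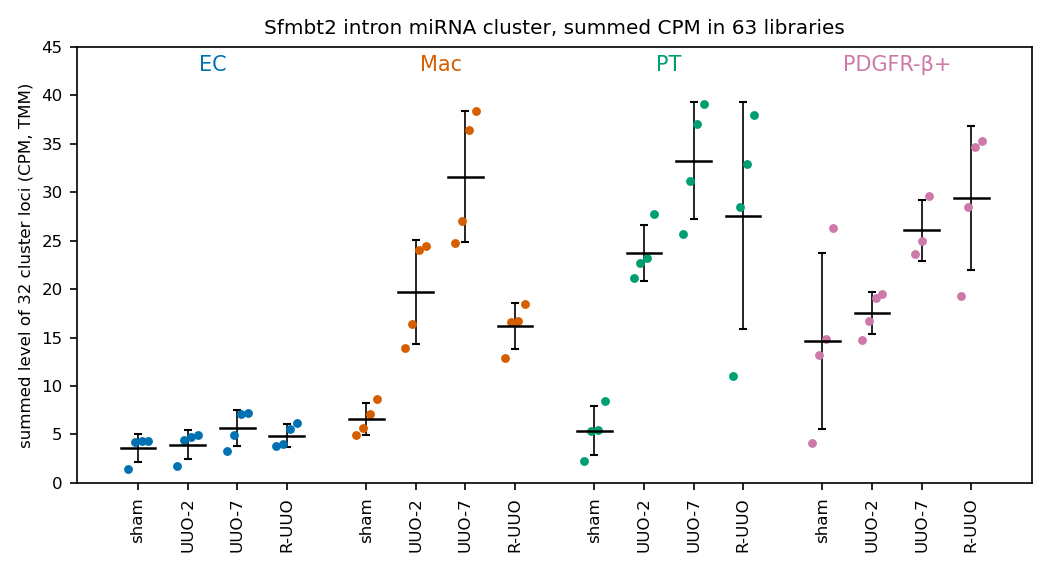
Summed level of the 32 members (CPM, TMM scaling over all libraries) in each library, with each point 1 library, lines the mean and bars the SD. The EC libraries lie between 1.46 and 7.26 CPM, and in Macs and PT cells all UUO-7 libraries lie above all sham libraries.

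Each cell type was tested against the mean of the other 3 by the quasi-likelihood test of edgeR in one fit of the 63 libraries, where 7 of the 32 members passed the filter on low counts and 671 loci were tested. Calls needed a Benjamini-Hochberg adjusted p under 0.05 and a fold change over 1.5. A member that passes only through the types in which it is high has to differ. The counts of calls describe these 7 and not the array. In ECs, 5 of the 7 were lower (25.9% of all loci were lower by the same rule). miR-467c-5p was lower by a log2 of -2.60 ± 0.46 (SE, adjusted p = 1.54e-06), miR-467d-5p by -1.90 ± 0.30 (1.77e-07) and miR-669c-5p by -1.82 ± 0.48 (0.000816). miR-466a-3p (-1.74 ± 0.31) and miR-669a-5p (-1.40 ± 0.40) were lower too. miR-669o-5p and miR-669o-3p, the other 2 tested, had groups without reads and no usable estimate in this fit. DESeq2 called both lower (adjusted p = 0.000177 and 0.00800). No member passed the filter within ECs, so these 7 entered the fit through other types, and their filtered calls in ECs add no support. With no filter the same 5 were called lower (edgeR, adjusted p = 3.72e-11 to 0.00199), of 32 tested, beside 174 of 1587 loci. These comparisons were over all 4 conditions. In sham alone, ECs had a higher mean than Macs for miR-467c-5p (0.396 against 0.238 CPM) and miR-669c-5p (0.272 against 0.214). For miR-669a-5p the sham mean in ECs was 0.683 CPM, against 0.321 in Macs and 0.234 in PT cells. The sham mean of miR-669o-3p was highest in ECs, and those of miR-467d-5p and miR-466a-3p were lowest there. The cell types were not tested against each other within sham. In PDGFR-β+ cells, 4 were higher (29.1% of all loci), namely miR-466a-3p (log2 1.23 ± 0.26, adjusted p = 3.96e-05), miR-467d-5p (1.19 ± 0.25, 4.76e-05), miR-467c-5p (0.94 ± 0.36, 0.0184) and miR-669o-5p, for which no fold is given because 4 groups had no reads of it. The miR-669o-5p call is uncertain for the same reason and was lost under 3 of 11 alternatives (adjusted p up to 0.9998). Its mean level was higher in PT cells (0.893 CPM) than in PDGFR-β+ cells (0.680). In PT cells, 2 were higher (32.9% of all loci), miR-669c-5p and miR-466a-3p (log2 1.04 ± 0.29, adjusted p = 0.00123). In Macs, 2 were higher (30.4% of all loci), miR-467c-5p (log2 0.89 ± 0.40, adjusted p = 0.0486) and miR-669o-3p, which had no reads in 1 group. Without the libraries numbered 4, 2 members were called in ECs, and without those numbered 3, 2 in PDGFR-β+ cells. By library size alone 5 members were higher in Macs, and miR-467c-5p lost its call in PDGFR-β+ cells (adjusted p = 0.209), as it did in Macs under 4 of 11 alternatives (up to 0.165).

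miR-669c-5p was the member with the largest difference in PT cells. Against the other 3 types it was higher by a log2 of 2.69 ± 0.42 (edgeR, adjusted p = 1.28e-07), and it kept its call under each of 11 alternatives (log2 2.47 to 3.11). However, it passed the filter through the PT groups in which it was high, so calls in filtered fits add no support to the levels. With no filter it was called as well (edgeR, log2 2.68 ± 0.43, adjusted p = 3.05e-09). At UUO-7 the 4 PT libraries held 1.35, 5.50, 7.27 and 9.27 CPM of it, and in R-UUO 4.13, 4.33, 9.53 and 12.5 CPM. At UUO-7 the 4 Mac libraries held 1.25 to 2.28 CPM and the 3 PDGFR-β+ libraries 0 to 1.04. The highest level outside PT cells was 3.95 CPM, in a PDGFR-β+ library of the R-UUO group, and all 4 PT libraries in R-UUO exceeded it, the lowest of them on 3 reads. miR-669c-5p made up 26.8% of the cluster's reads in PT cells after reversal (41 of 153, exact 95% interval 20.0% to 34.5%) and 14.2% at UUO-7 (54 of 379, 10.9% to 18.2%). At UUO-2 it made 7.41% (10 of 135, 3.61% to 13.2%), and in sham 20.8% on 5 of 24 reads (7.13% to 42.2%). The share was 7.84% in PDGFR-β+ cells after reversal (41 of 523, 5.68% to 10.5%) and 3.34% in Macs (11 of 329, 1.68% to 5.90%), so the PT share at UUO-2 lay within the range that the other types covered over the conditions. Over all conditions, miR-467d-5p made from 24.6% of the cluster's reads in PT cells to 30.9% in PDGFR-β+ cells, and miR-467c-5p made 14.1% in Macs and 5.87% to 8.25% elsewhere, by pooled reads. As a mean over libraries the share of miR-467c-5p was 12.3% ± 6.38 in Macs and 10.0% ± 7.76 in PDGFR-β+ cells (SD), which differed by less than the spread.

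**Figure D3:**
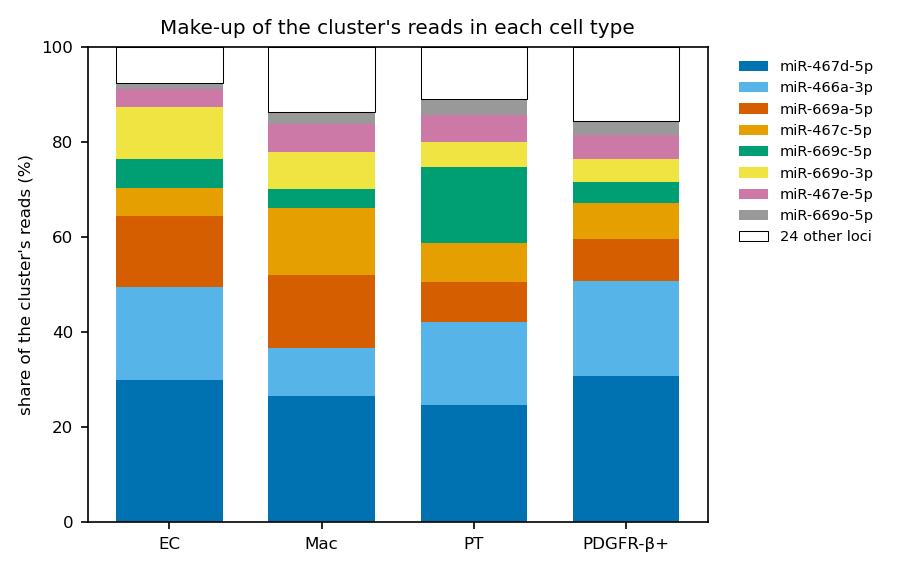
Share of the cluster's reads (%) that each of the 8 most abundant members held in each cell type, with reads pooled over its libraries and the other 24 members in white. miR-669c-5p takes 15.9% in PT cells and 4.07% to 6.16% in the other cell types.

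The summed level of the miRNAs known to mark each cell type was highest in the libraries of that type, in every condition. The lists were miR-126a for ECs, miR-142a and miR-223-3p for Macs, miR-192-5p, miR-194-5p and miR-215-5p for PT cells, and the miR-199a/214 and miR-143/145a groups for PDGFR-β+ cells. miR-215-5p went against its list, at means of 0.465 to 2.71 CPM in PT cells and 0.820 to 3.65 in the other types, and was lower in PT cells than in at least 1 other type in sham, at UUO-7 and in R-UUO. The summed markers of PT cells stood at 120878 ± 14252 CPM in sham PT libraries and at 42289 ± 8669 at UUO-7 (SD, n = 4). In PT libraries the summed PDGFR-β+ markers stood at 2503 CPM in sham and 10294 at UUO-7, 0.674% and 6.60% of their level in PDGFR-β+ cells, while the cluster in PT cells at UUO-7 stood at 128% of its level in PDGFR-β+ cells. The epithelial miRNAs miR-141-3p, miR-200b-3p and miR-200c-3p were listed for epithelium other than the proximal tubule. The paper found the miR-200 family enriched in PT cells, and cautions that its approach may not separate portions of the nephron. All 3 stood higher in PT libraries at UUO-7, with a sum of 3128 to 3624 CPM in sham and 5305 to 7172 at UUO-7. miR-141-3p stood at 84.8 ± 21.3 CPM in sham and 955 ± 657 at UUO-7, and miR-200c-3p at 13.8 ± 9.83 and 120 ± 9.45 (SD, n = 4 each). These miRNAs do not tell a change within PT cells from other epithelial cells in the gate, and the part of other cells in the PT results was not tested. The Mac markers in PT libraries were 0.218% and 1.02% of their level in Macs. In Mac libraries, miR-150-5p, a miRNA of mature lymphocytes, stood at 129 ± 33.1 CPM in sham mice, 308 ± 73.0 at UUO-2, 595 ± 137 at UUO-7 and 366 ± 198 after reversal (SD, n = 4 each). It was lowest in sham and highest at UUO-7, as the cluster was. However, miR-150-5p stood far higher in the EC libraries in every condition, at 3244 ± 376 CPM in sham and 2358 ± 355 at UUO-7. miR-150-5p was thus not confined to the CD45+ libraries, and its source in the Mac and EC libraries was not tested. The summed PDGFR-β+ markers in Mac libraries stood at 3771 ± 1310 CPM in sham and 3908 ± 806 at UUO-7, but within them miR-214-3p stood at 2.51 ± 0.754 and 32.3 ± 7.14 and miR-199a-3p at 98.5 ± 17.6 and 336 ± 42.1. The red cell markers summed to 0.433 ± 0.492 CPM in sham, 7.02 ± 2.99 at UUO-2 and 1.88 ± 0.553 at UUO-7. The part of these cells in the Mac results was not tested. In sorted populations, a change in the level per cell and a change in which cells enter the gate cannot be told apart.

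In Macs the cluster was higher in obstructed than in sham kidneys, and lower after reversal than at UUO-7. The summed level was 6.61 ± 1.65 CPM in sham kidneys, 19.7 ± 5.38 at UUO-2, 31.6 ± 6.76 at UUO-7 and 16.2 ± 2.37 after reversal (SD, n = 4 each), a ratio of 4.79 for UUO-7 over sham. No sham library overlapped any other group, and R-UUO and UUO-7 did not overlap. miR-467c-5p was near absent from sham Macs, at 0, 0, 0.353 and 0.598 CPM (0 to 2 reads), and stood at 2.83 to 4.04 CPM at UUO-2 and at 4.07, 4.10, 4.41 and 6.60 CPM at UUO-7. miR-669a-5p went from 0, 0.177, 0.434 and 0.673 CPM in sham to 3.86, 6.04, 6.57 and 7.92 CPM at UUO-7. For both miRNAs, which had the largest rises, the sham libraries and the obstructed libraries did not overlap. The share of all loci that separated in this way was not counted. In R-UUO, miR-467c-5p stood at 1.12 to 2.79 CPM and miR-669a-5p at 0.836 to 2.83, between the sham and the UUO-7 libraries.

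Within Macs, 5 of the 32 members passed the filter and entered edgeR's quasi-likelihood test over 457 loci, scaled within Macs. A member that passes only through the group in which it is high has to differ, so the counts of calls describe these 5 and not the array. At UUO-2 against sham, 3 of the 5 were higher, beside 18.4% of all loci. miR-467c-5p rose by a log2 of 4.13 ± 0.62 (SE, adjusted p = 6.17e-05), miR-669a-5p by 3.35 ± 0.54 (0.000132) and miR-466a-3p by 1.66 ± 0.51 (0.0189). At UUO-7 against sham, all 5 were higher, beside 26.3% of all loci. miR-467c-5p rose by 4.68 ± 0.62 (adjusted p = 1.00e-05), miR-669a-5p by 4.21 ± 0.54 (8.93e-06), miR-669o-3p by 2.47 ± 0.72 (0.00846), miR-467d-5p by 1.90 ± 0.53 (0.00657) and miR-466a-3p by 1.54 ± 0.53 (0.0225). The median over all loci was 0.15 and 0.22 in these 2 comparisons. The 2 largest rises kept their calls under each of 16 alternatives, with adjusted p over both from 3.70e-07 to 0.00114 at UUO-2 and from 5.38e-10 to 0.000389 at UUO-7. However, miR-467c-5p had 0 to 2 reads in a sham library and miR-669a-5p 0 to 4. Both passed the filter through the groups in which they were high, so their calls in filtered fits add no support to the levels. With no filter both were called at UUO-7 as well (edgeR, adjusted p = 2.87e-09 and 1.30e-09).

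The smaller rises in Macs rested on single libraries. miR-466a-3p lost its call at UUO-7 without sham library 1 or 3 or UUO-7 library 3 or 5 (adjusted p = 0.0734 to 0.124), and at UUO-2 without sham library 1 or 3 or UUO-2 library 1, 2 or 4 (0.0615 to 0.0923). With no filter miR-466a-3p was not called either (edgeR, adjusted p = 0.0943 at UUO-2 and 0.117 at UUO-7). miR-467d-5p lost its call at UUO-7 without UUO-7 library 3 (adjusted p = 0.0561), which held 13.1 CPM against 5.63 to 7.71 in the other libraries of its group. miR-669o-3p lost it without UUO-7 library 4 (adjusted p = 0.0620), which held 5.28 CPM against 0.939 to 2.28. Without UUO-7 library 3, 3 of the 5 were called.

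After reversal, miR-669a-5p fell in Macs. The change from UUO-7 to R-UUO was a log2 of -1.67 ± 0.45 (edgeR, adjusted p = 0.0115), the only call among the 5 members, beside 7.22% of all loci that were lower. miR-467c-5p gave -1.13 ± 0.45 (adjusted p = 0.0755) and was called by library size alone (0.0312) and by DESeq2 (0.0350). The values of miR-669o-3p, miR-467d-5p and miR-466a-3p ran from -1.32 ± 0.67 to -0.64 ± 0.51, with adjusted p from 0.153 to 0.370. Compared with sham, 2 members were still higher in R-UUO, beside 21.4% of all loci, miR-467c-5p by a log2 of 3.55 ± 0.65 (adjusted p = 0.000338) and miR-669a-5p by 2.54 ± 0.58 (0.00206). In a fit of those 2 groups alone neither passed the filter, and 0 members were called. In that fit the one member tested, miR-467d-5p, gave 0.88 ± 0.66 (adjusted p = 0.339), and at an unadjusted p under 0.05 the count was 0.

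**Figure D4:**
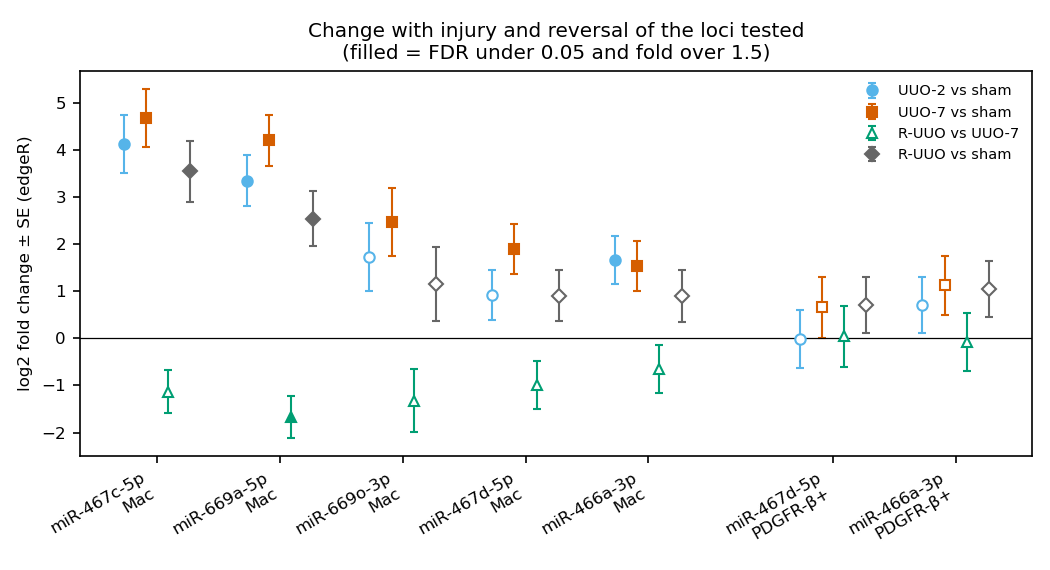
log2 fold changes with SE (edgeR) of the 5 members tested in Macs and the 2 tested in PDGFR-β+ cells, with filled symbols where the adjusted p was under 0.05 and the fold over 1.5. In Macs the values against sham lie above 0 for all 5 members and those for R-UUO against UUO-7 below 0, with miR-467c-5p highest at 4.68.

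In PT cells the cluster was also higher in obstructed than in sham kidneys, on very few sham reads, and it was above sham after reversal too. The summed level was 5.36 ± 2.54 CPM in sham kidneys, 23.7 ± 2.86 at UUO-2, 33.3 ± 6.07 at UUO-7 and 27.6 ± 11.7 after reversal (SD, n = 4 each), a ratio of 6.20 for UUO-7 over sham and of 4.53 by library size, against 4.79 and 5.88 in Macs. All sham libraries, at 2.22, 5.39, 5.41 and 8.43 CPM, lay below all others, and R-UUO overlapped UUO-7. The sham libraries held only 2, 6, 7 and 9 cluster reads, on totals of 622689 to 987306. At the smallest depth of any library, the number of members expected to be seen was 2.75 ± 0.638 in sham PT cells and 7.82 ± 0.537 at UUO-2 (SD, n = 4 each). miR-467d-5p gave 0, 0, 1.54 and 2.71 CPM in sham against 4.85, 8.26, 11.2 and 11.5 at UUO-7.

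None of the 32 members passed the filter in the PT fit of 330 loci, so none was tested there. With no filter, 1231 loci were tested, and 4 of the 25 members tested were called higher at UUO-7 than in sham, beside 8.94% of all loci. miR-467d-5p gave a log2 of 2.92 ± 0.71 (edgeR, adjusted p = 0.000526) and miR-669c-5p 2.23 ± 0.77 (0.0345). miR-467e-5p and miR-669o-3p, the other calls, had no read in the 4 sham libraries. A count of 0 there allows up to 2.31 to 3.33 CPM per library at 3 counts, above the UUO-7 means of 1.87 ± 1.94 and 2.27 ± 1.16 CPM, so a level like that at UUO-7 could not be told from 0 in a single sham library, and no fold is given. In R-UUO against sham, 2 of the 25 were called with no filter, a share near the 8.29% of all loci, namely miR-669c-5p (2.74 ± 0.78, adjusted p = 0.00584) and miR-467d-5p (2.30 ± 0.75, 0.0248). In the same fit no member was called at UUO-2 against sham, where 5 had an unadjusted p under 0.05, or in R-UUO against UUO-7, where none had. With the filter, leaving out any 1 of the 4 sham libraries, UUO-2 library 1 or 4, or R-UUO library 4 or 5 let miR-467d-5p, miR-669c-5p or both pass. miR-467d-5p had 0, 0, 2 and 3 reads in the sham libraries and so passed through the groups in which it was high, and calls in those fits add no support.

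In PDGFR-β+ cells the cluster was already present in sham, and neither of the 2 members that could be tested was called with injury. The summed level was 14.6 ± 9.10 CPM in sham kidneys (n = 4), 17.5 ± 2.19 at UUO-2 (n = 4), 26.1 ± 3.13 at UUO-7 (n = 3) and 29.4 ± 7.42 after reversal (SD, n = 4). The sham libraries ranged from 4.15 to 26.3 CPM and overlapped every other group. By library size, sham and UUO-7 did not overlap, at up to 17.3 and at least 23.7 CPM, with a ratio of 2.49 in place of 1.78. Sham library 1 held 137 of the 214 sham reads, and without it the log2 ratio of UUO-7 to sham was 1.28 instead of 0.83. Only miR-467d-5p and miR-466a-3p passed the filter among 477 loci. Neither was called at UUO-2 against sham (6.29% of all loci were called), at UUO-7 against sham (48.2%), in R-UUO against UUO-7 (3.98%) or in R-UUO against sham (41.7%), and at an unadjusted p under 0.05 the counts were 0 too. At UUO-7 the log2 changes were 0.66 ± 0.65 for miR-467d-5p (edgeR, adjusted p = 0.418) and 1.12 ± 0.63 for miR-466a-3p (0.154), beside a median over all loci of 0.50. By library size alone miR-466a-3p was called at UUO-7 (1.58 ± 0.65, adjusted p = 0.0480). The imprinted miRNA cluster on chromosome 12, set beside it as another large array, had 57 loci tested in the TMM-scaled fit. Of these, 51 were higher at UUO-7 than in sham, beside 162 of all 477 loci. In ECs 8 of its 46 tested loci were lower at UUO-7 and 0 higher, beside 25 lower and 29 higher of all 469 loci. The difference between the clusters was not tested.

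ECs held the fewest reads of the cluster, and none of its members passed the filter in the EC fit of 469 loci. The summed level was 3.58 ± 1.42 CPM in sham kidneys, 3.95 ± 1.49 at UUO-2, 5.66 ± 1.90 at UUO-7 and 4.88 ± 1.19 after reversal (SD, n = 4 each), and every group overlapped sham. ECs had the deepest libraries, 2792366 to 10819385 reads, yet gave 341 of the 3880 cluster reads, and miR-467c-5p stood at 0 to 1.05 CPM in every EC library. The summed PDGFR-β+ markers in EC libraries were 4.38% of their level in PDGFR-β+ cells in sham and 20.3% in R-UUO. The cluster in ECs stood at 24.5% and 16.6% of its level in PDGFR-β+ cells. The part of PDGFR-β+ cells in the EC levels was not tested.

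**Figure D5:**
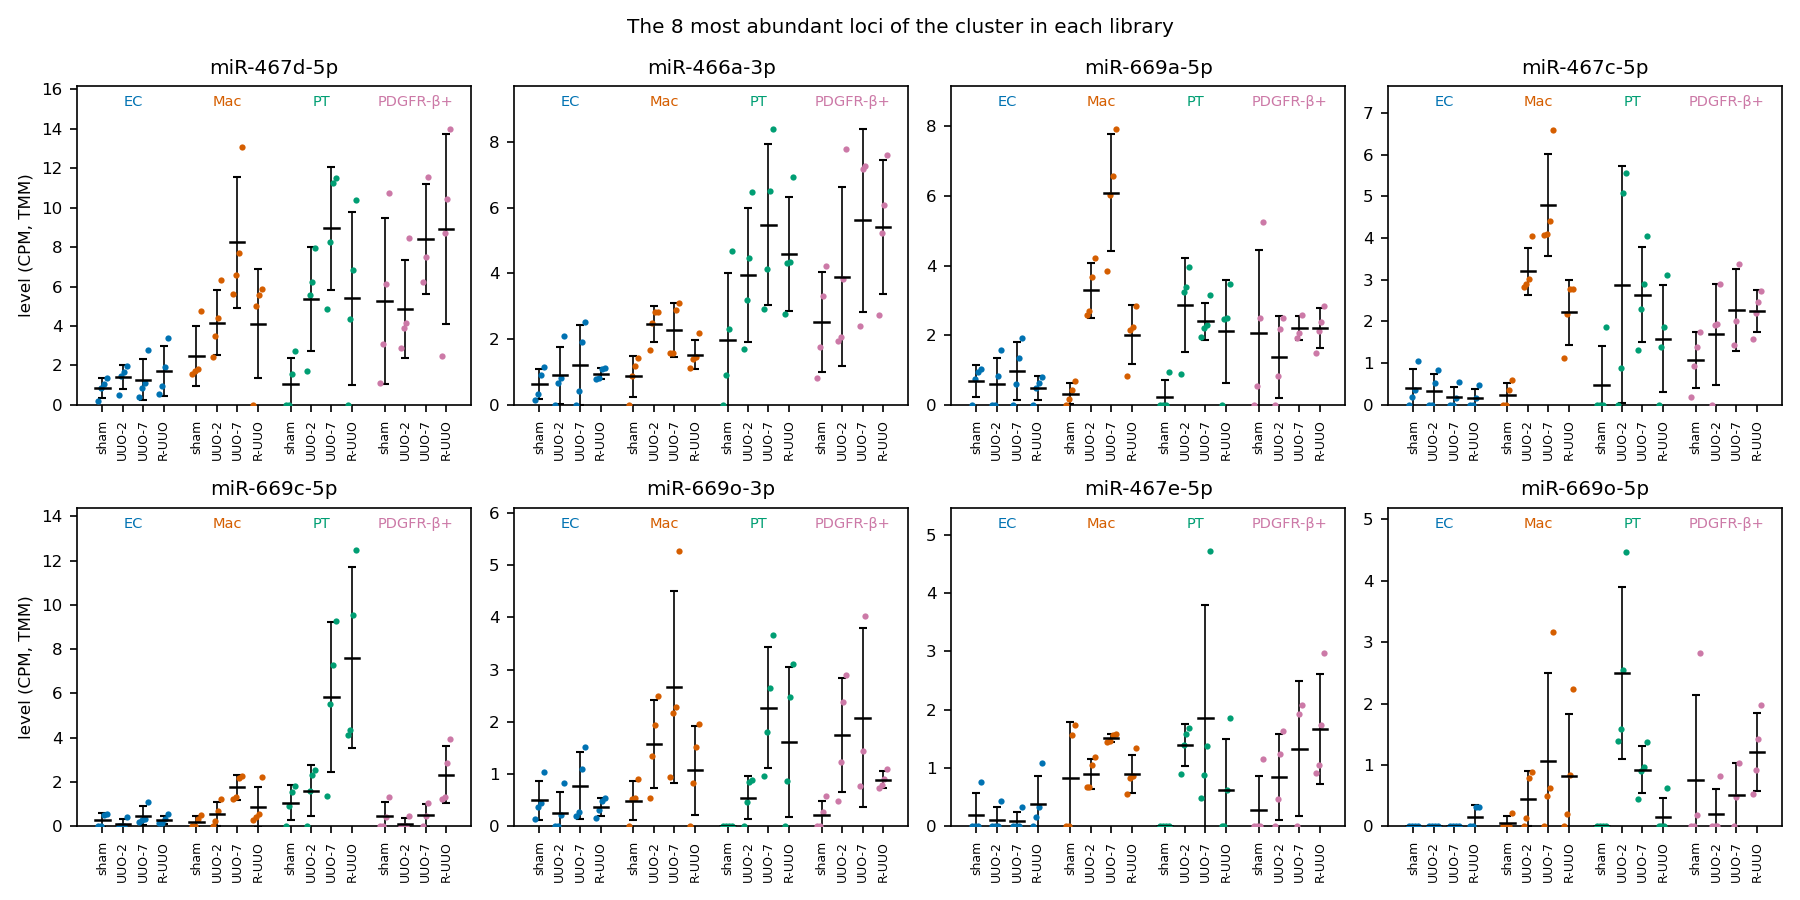
Level (CPM, TMM scaling over all libraries) of the 8 most abundant members in each library, with each point 1 library, lines the mean and bars the SD; the axes start at 0 and hide the lower end of some bars. miR-467c-5p and miR-669a-5p peak in Macs at UUO-7, at 6.60 and 7.92 CPM, and miR-669c-5p in PT cells of the R-UUO group, at 12.5 CPM.

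The change from sham to UUO-7 was then compared between cell types, as the change in 1 type minus the mean change in the other 3, over 671 loci. miR-467c-5p was the only member with a called difference. Its change was larger in Macs, by a log2 of 3.55 ± 1.16 (edgeR, adjusted p = 0.0216), which made 1 of 7 members beside 7.00% of all loci that were higher. It was smaller in ECs, by -3.79 ± 1.25 (adjusted p = 0.0346), 1 of 7 members beside 10.9% of all loci that were lower. miR-467c-5p passed the filter through groups in which it was high, such as obstructed Macs, so these filtered calls add no support to the levels. With no filter it was called too, in Macs (edgeR, log2 3.47 ± 1.13, adjusted p = 0.0307) and in ECs (-3.72 ± 1.22, 0.0448). Both filtered calls rested on single sets of libraries. The EC call was lost when the libraries of any 1 of the 5 replicate numbers were left out (adjusted p = 0.0531 to 0.161), and the Mac call without number 4, which left the PT sham group with no read of it (log2 2.44), or number 5 (adjusted p = 0.0506). No member was called for PT cells or for PDGFR-β+ cells (23.8% and 22.8% of all loci were called in either direction), while at an unadjusted p under 0.05 there were 2 members for PT cells and 1 for PDGFR-β+ cells.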

How the data were processed

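Small RNA libraries of 4 sorted kidney cell types in 4 conditions were grouped by the sample labels. The authors trimmed reads with Trim Galore 0.4.1 and cutadapt 1.1 (submitters' processing notes), used ShortStack for alignment to GRCm38 with miRBase loci, removed 1 PDGFR-β+ UUO-7 library as an outlier, and deposited raw read counts per locus of a mature miRNA, neither normalized nor pooled. Whether strand was used and how multi-mapping reads were placed are not given in the sources used here. A further total column was not used, and no column of other samples was present (0).

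Analysis used R 4.3.3, edgeR 4.0.16, limma 3.58.1 and DESeq2 1.42.0. Loci were filtered with filterByExpr and scaled by TMM, over all 63 libraries for cell types and levels and within 1 cell type for injury, so the scales differ. Tests were edgeR's quasi-likelihood test with Benjamini-Hochberg adjustment over all loci tested, and calls needed an adjusted p under 0.05 and a fold over 1.5. The summed CPM was not tested. Scripts were tested on simulated counts. Gene models are GENCODE M21. Named members were the 8 with the highest mean CPM, the most abundant of each family, and up to 3 calls per comparison. The members and lists were chosen with earlier results of these data known. Within a condition all cell types share the same 4 replicate numbers, and 4 animals a group were sequenced, so libraries of 1 number were taken to be of 1 mouse. No source states this, and the mean correlation of their deviations was only 0.0571 (lowest -0.295). Across conditions a number marks different mice. Within groups all 93 pairs of libraries differed by more than sampling noise (chi-square per degree of freedom at least 8.96 over loci with 10 or more reads). Intervals and floors cover counting error only, since reads carried no molecular identifiers. Alternatives were DESeq2, library size only, DESeq2 size factors, no filter, only the compared groups, a replicate block, identical loci once, loci of 1 name summed, and each library or number left out. One alternative, without sham PDGFR-β+ library 1, was chosen after seeing the data.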

Additional observations from a re-analysis of the deposited data

Results flagged for a closer look

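In groups of 4 libraries, 41 groups of values were checked for a library far from the rest, and 5 were found, where chance gives about 1 in 20 groups. The summed level in 1 sham EC library was 1.46 CPM, against 4.20 to 4.37 in the other 3. In Macs, miR-467c-5p reached 4.04 CPM in 1 UUO-2 library against 2.83 to 3.03 in the others, and 6.60 CPM in 1 UUO-7 library against 4.07 to 4.41. miR-467d-5p stood at 4.77 CPM in 1 sham Mac library against 1.57 to 1.79. In R-UUO Mac library 5 miR-467d-5p had 0 reads, so a level of 0 CPM, where 3 counts would be 1.68 CPM, against 5.02 to 5.87 in the others, and this library held 23 cluster reads among 1106651.

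The change of miR-467c-5p from sham to UUO-7 differed between cell types in a test of the difference itself (edgeR), by a log2 of -3.79 in ECs and of 3.55 in Macs, each against the mean of the other 3 types. The counts behind it were small, with 10 reads in sham and 3 at UUO-7 in ECs and 4 and 82 in Macs. miR-467c-5p passed the filter through groups in which it was high, so this filtered test adds no support to the levels. The cause was not tested.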

How the results depend on the processing

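Called members of the compared cell type or contrast are counted here. For Macs, fitting only the 2 groups compared gave 3 at UUO-7, 2 in R-UUO against UUO-7 and 0 in R-UUO against sham, on 3, 3 and 1 members tested. DESeq2 and library size alone gave 2 in R-UUO against UUO-7. At UUO-2 in Macs there were 2 without the filter and 4 by library size, in place of 3. Against the other types DESeq2 gave 7 for ECs, 3 for Macs and 3 for PDGFR-β+ cells. Without the filter there were 4 in PT cells at UUO-7 and 2 in R-UUO against sham. Library size alone gave 1 in PDGFR-β+ cells at UUO-7. For Macs against the other types there were 5 by library size, 4 by DESeq2 size factors, 5 without the filter and 1 with loci of 1 name summed, and for PDGFR-β+ cells 9 without the filter. For the difference in change, library size gave 2 in ECs and DESeq2 size factors 2 in Macs. The summed level in Macs was 32.3 CPM by library size. The causes were not tested.

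With 1 library left out, the counts in Macs ran from 2 to 3 at UUO-2 and from 3 to 6 at UUO-7, and in PT cells from 0 to 1 at UUO-2, 0 to 2 at UUO-7 and 0 to 2 in R-UUO against sham. With 1 replicate number left out, the counts against the other types ran from 2 to 5 for both ECs and PDGFR-β+ cells and from 2 to 4 for Macs, and stayed at 2 for PT cells. For the difference in change the range was 0 to 2 in Macs and 0 to 1 in each of the other types. No value of a called member turned its sign in any of these settings.

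With a replicate block, libraries of 1 condition and number being taken as paired, the counts were 5 for ECs, 4 for PDGFR-β+ cells and 2 for each of Macs and PT cells, and for the difference in change 1 for each of ECs and Macs and 0 for the rest, as without it. In the injury comparisons, where same-numbered libraries are different mice, the replicate block gave 4 in Macs at UUO-2 and 4 at UUO-7, where miR-466a-3p had an adjusted p of 0.0506, and no other count changed. Depth limits PT cells most, since 3 counts in a PT library are up to 4.13 CPM.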

Other observations

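Members below the 8 most abundant also differed in where they were read. miR-466o-5p had 15 reads in 6 of 16 Mac libraries and 23 reads in 7 of 15 PDGFR-β+ libraries, 0.279 and 0.330 CPM by library total. It had 0 reads in ECs and in PT cells, where 3 counts would be 0.0262 and 0.120 CPM. miR-669m-5p, summed over its 2 rows, had 25 of its 37 reads in PDGFR-β+ cells (7 of 15 libraries, at most 9 in a library), with 7 in Macs, 4 in PT cells and 1 in ECs. miR-466h-5p had 17 reads in Macs, 11 in PDGFR-β+ cells, 6 in PT cells and 0 in ECs. miR-669l-5p had 20 reads in PT cells, 8 of them in 1 library. By library total this was 0.801 CPM, against 0.594 in Macs, 0.487 in PDGFR-β+ cells and 0.0525 in ECs. With TMM scaling the order differed, at means of 0.640 CPM in PDGFR-β+ cells, 0.513 in PT cells, 0.316 in Macs and 0.0784 in ECs. With no filter miR-669l-5p was called higher in PDGFR-β+ cells (edgeR, log2 1.56 ± 0.52, adjusted p = 0.0113). So were the 2 rows of miR-669m-5p (2.05 ± 0.57, 0.00149, and 2.19 ± 0.57, 0.000647). miR-466h-5p was called there too (1.27 ± 0.48, 0.0298), although Macs held more of its reads. These were among 9 of 32 members called higher in PDGFR-β+ cells, beside 226 of 1587 loci. The read counts are pooled and given as a description, and none of these members passed the filter.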
